A study of Nicotiana tabacum with 6 samples.

Results

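The 200 most abundant gene models of uninduced tobacco BY-2 cells are described here, with their levels in the same line after induction of the Arabidopsis auxin carrier gene AtPIN5. They were chosen by one rule: the 69491 gene models of the Nitab4.5 annotation were ranked by their mean TPM (transcript abundance scaled to one fixed sum per library and corrected for effective length) over the 3 DMSO libraries, and ranks 1 to 200 were taken. BY-2 is a rapidly dividing suspension line of Nicotiana tabacum, kept in the dark in liquid medium with the synthetic auxin 2,4-D. All 6 libraries came from one stable transgenic line that expresses AtPIN5 under estradiol control, and RNA was taken from 2-day-old cultures, with subculturing every 7 days. The 3 EST libraries came from cells given 1 µM β-estradiol dissolved in DMSO for 48 h, and the 3 DMSO libraries from cells given the solvent for the same time. Whether the line is a single clone is not given in the sources used here. No estradiol-treated cells without the transgene were part of the design, so an effect of estradiol itself cannot be told apart from an effect of AtPIN5.

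The mRNA pool of a growing plant cell is uneven. A small number of genes, typically for ribosome and translation components, histones, the cytoskeleton, chaperones and central metabolism, supply a large part of it. TPM and read shares are relative measures: when some transcripts take more of the pool, all others take less, with no change in their own amount per cell. In bulk samples such as these, fewer cells expressing a gene and less of its RNA per cell cannot be told apart. PIN5 itself is an auxin carrier of the endoplasmic reticulum rather than of the plasma membrane. None of these classes can be assigned to the 200, because the Nitab4.5 identifiers come without names and 0 of them matched the K326 reference gene table. They are therefore referred to by rank.

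The libraries held 11776234 to 17281241 estimated reads. AtPIN5, which is not ranked, stood at 0.387 to 1.51 TPM in the DMSO libraries and at 23.99, 95.4 and 341 TPM in EST 1, 2 and 3. All DMSO libraries and EST 1 were sequenced by Novogene, and EST 2 and 3 by IAB, according to the labels. DMSO 2 and 3 lay much closer together than other replicates. Over the 200 gene models their TPM values had a Spearman's rho of 0.98, against 0.79 and 0.80 for DMSO 1 with each of them, and differed by a median of 0.05 on the log2 scale, against 0.20 and 0.19. The means of the DMSO group, and so the ranks, rest largely on these 2 libraries. All 200 gene models passed the filter on low counts, the lowest with 166 reads in any library.

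The 200 gene models held 23.6%, 24.9% and 24.7% of the TPM of DMSO 1, 2 and 3. In EST 1, 2 and 3 they held 16.4%, 18.6% and 18.9%. The group means were 24.4 ± 0.74% (SD, n = 3) in DMSO and 18.0 ± 1.37% (SD, n = 3) in EST, and the groups did not overlap. Because the DMSO values chose the gene models, a lower share in any other library is favoured by the choice, and no test is given. Counted in reads, without length correction, the share was smaller, at 15.1 ± 0.25% in DMSO and 12.1 ± 1.12% in EST (SD, n = 3). The single gene model at rank 1 held 0.85%, 1.01% and 1.06% of the TPM of DMSO 1, 2 and 3, and 0.32%, 0.68% and 0.68% of that of EST 1, 2 and 3. Ranks 1 to 10 together held 3.86 ± 0.25% in DMSO and 2.46 ± 0.35% in EST (SD, n = 3), and ranks 1 to 50 held 10.95 ± 0.54% and 7.27 ± 1.10%.

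How concentrated each transcriptome was can be asked without the choice of gene models, by taking each library's own 200 highest entries. These held 23.8%, 25.0% and 24.8% of the TPM in DMSO 1, 2 and 3 and 24.6%, 22.7% and 21.3% in EST 1, 2 and 3. The groups overlapped, since EST 1 lay among the DMSO libraries. The difference of -1.68 percentage points gave p = 0.2 in a two-sided exact permutation test, and 0.1 is the smallest value possible with 3 libraries a group. The 200 entries of each library with the most reads held, in reads, 19.1 ± 0.45% in DMSO and 18.6 ± 1.26% in EST (SD, n = 3), with p = 0.7 in the same two-sided exact permutation test. The overlap depended on the list length and the length correction: the groups did not overlap for each library's own top 500 (a difference of -3.63 points) or for the top 200 with one effective length per entry (-1.02 points), both with the smallest exact permutation p of 0.1.

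**Figure D1:**
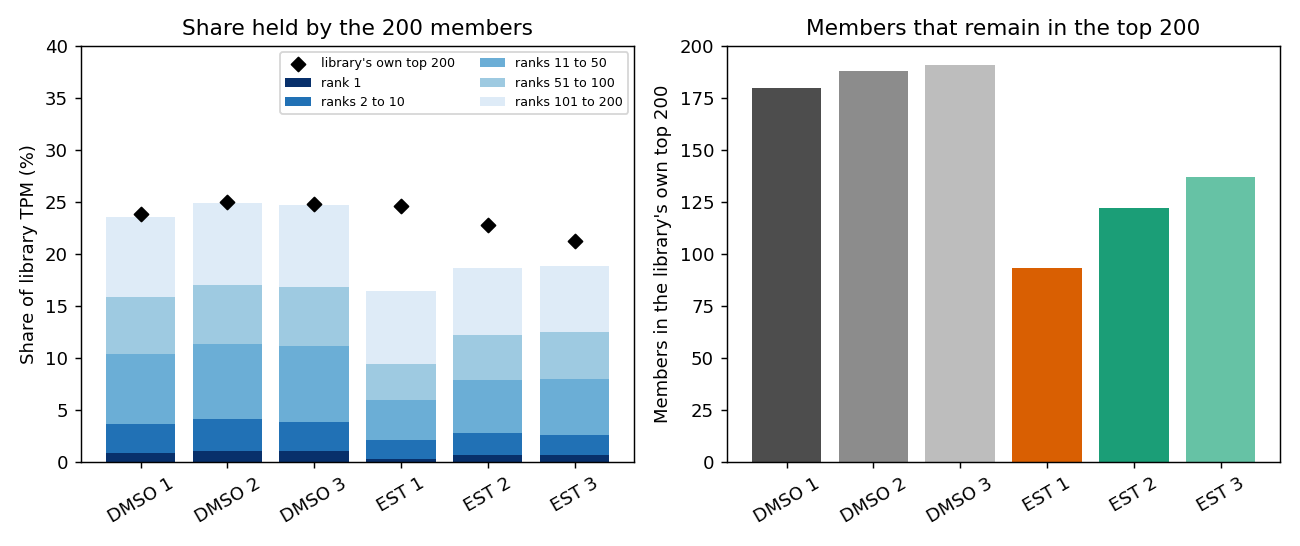
Left, share of each library's TPM (in percent, from 0) held by the 200 gene models, stacked by rank class, with diamonds for the share held by that library's own 200 highest gene models. Right, the number of the 200 that lie in each library's own top 200. The bars end between 23.6% and 24.9% in DMSO and between 16.4% and 18.9% in EST, and the diamonds lie between 21.3% and 25.0%.

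Of the 200, 166 lay in the own top 200 of all 3 DMSO libraries. In EST 1, 2 and 3 the numbers were 93, 122 and 137. A core of 68 gene models lay in the top 200 of all 6 libraries, and 46 lay in the top 200 of no EST library. Most of those that left stayed close: 198, 200 and 199 of the 200 stayed within the top 1000 of EST 1, 2 and 3, and the lowest own rank was 1259, in EST 1. The places were taken by 107, 78 and 63 other gene models in EST 1, 2 and 3. These entrants held 11.9%, 7.21% and 5.16% of the EST library's TPM, and 2.53%, 2.53% and 2.56% of the DMSO mean. Of them, 53, 54 and 54 ranked below 200 and down to 1000 in DMSO, so EST 2 and 3 mostly drew on the next ranks, whereas in EST 1 the median entrant ranked 1016 in DMSO, against 467.5 and 339 in EST 2 and 3. Only 21 entrants were common to all 3 EST libraries.

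The levels within the 200 were steep at the top and flat below. Rank 1 stood at 8484, 10102 and 10552 TPM in DMSO 1, 2 and 3, a mean of 9713 TPM, and rank 2 at 6089, 5441 and 5437 TPM. Rank 3 had a mean of 3699 TPM, rank 10 of 2448 TPM, and the median of the 200 was 959 TPM. At the threshold the values ran on without a gap, with a mean of 666 TPM at rank 200 and 664 TPM at the rank just outside.

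In the EST libraries rank 1 remained high, at 3213, 6766 and 6771 TPM. It was first in EST 3, second in EST 2 and ninth in EST 1, and every EST value lay under every DMSO value. Rank 2 stood at 3649, 5875 and 4460 TPM in EST 1, 2 and 3, with EST 2 alone not below the DMSO values. In CPM (reads scaled to library size, without length correction) rank 2 had 2347, 2927 and 2273 in EST. All lay under its DMSO values of 4292, 3762 and 3704. Rank 5, Nitab4.5_0004914g0020.1, went the other way, from 3498, 2752 and 2791 TPM in DMSO to 3568, 5198 and 3832 TPM in EST, with no overlap in TPM. In CPM it had 1038, 749 and 732 in DMSO and 1287, 1321 and 992 in EST, and EST 3 lay below DMSO 1. Its log2 difference of 0.49 ± 0.22 (SE) was not called by edgeR's quasi-likelihood test of EST against DMSO (adjusted p = 0.191). Rank 7 overlapped between the groups, at 2692, 2771 and 2817 TPM in DMSO and 1659, 2967 and 2382 TPM in EST. Rank 10 was lower in all EST libraries, at 702, 1346 and 1170 TPM against 2043, 2705 and 2597 TPM.

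**Figure D2:**
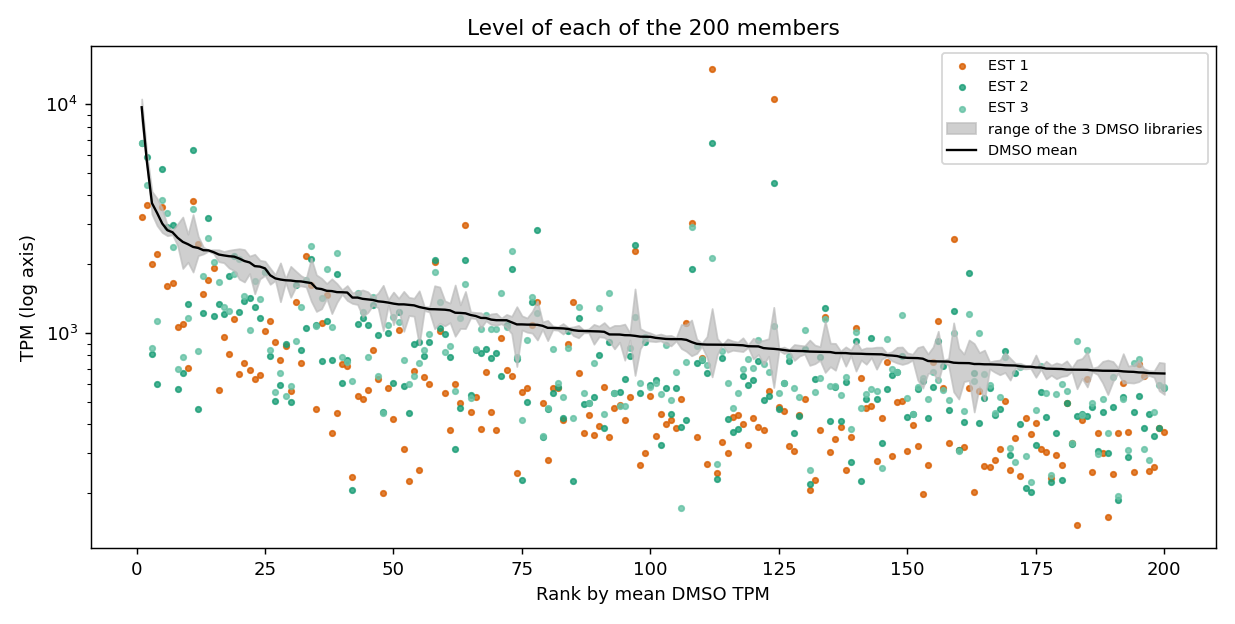
TPM (log axis) of each of the 200 gene models, ordered by rank in mean DMSO TPM. The black line is the DMSO mean, the grey band spans the 3 DMSO libraries and points are the EST libraries. Most points lie under the band, and the isolated points above it at ranks 112 and 124 reach 14305 and 10535 TPM in EST 1.

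The gene models were shorter than most, as were those just below them. Their median length was 717 bases (quartiles 470.5 and 889), against 1232 bases over the 33955 gene models tested and 901 bases over the whole annotation. The shortest, at rank 140, had 222 bases and the longest, at rank 18, had 1890 bases. Entries over 1500 bases made up 4.0% of the 200 and 36.6% of those tested, and entries under 300 bases 7.5% and 1.88%. Over the next 200 ranks the median was 723 bases, with 4.5% over 1500 bases and 8.5% under 300. TPM divides reads by effective length, so the ranking itself favours short entries. When the DMSO libraries were ranked by CPM (reads scaled to library size, with no length correction) instead, 113 of the 200 (56.5%) stayed in the list, whose median length was 1042 bases, and all 15 entries under 300 bases left it.

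A property that the rule did not use is whether a gene model's length is a multiple of 3, as the length of an uninterrupted coding sequence is. This held for 95 of the 200 (47.5%), for 75.5% of the gene models tested and for 83.7% of the annotation. The share was 52.0% over the next 200 ranks, 55.5% at ranks 401 to 1000 and 56.8% at ranks 1001 to 5000, so it was not particular to the first 200. Within the 200 the 105 other entries had a median of 799 bases, and the 95 had a median of 501 bases. The median log2 difference of EST from DMSO in TPM was -0.83 for the 95 and -0.72 for the 105, and in EST 2 alone -0.81 and -0.50. In CPM it was -0.63 for both.

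Estimated counts that are not whole arise where Salmon divides reads between similar entries. Between 87.0% (EST 1) and 99.0% (DMSO 3) of the 200 had an estimated count that was not whole within 0.0015 reads, against 46.0% (EST 1) and 60.5% (DMSO 3) of the gene models tested in those libraries. Their counts were also higher than elsewhere, and the part of that was not tested. The share was also high over the next 200 ranks, at 74.0% in EST 1 and 94.5% in DMSO 3. None of the 200 had whole estimates in every library. Tobacco is an allotetraploid with near-identical gene copies, so the level of a single entry is less certain than the sum over its copies. By their identifiers the 200 lay on 188 scaffolds, with no more than 3 on one scaffold. Only 2 pairs were next to each other in the numbering of a scaffold: ranks 24 and 39, and ranks 112 and 124.

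The 15 entries under 300 bases are given apart, because their effective lengths differed between the companies. They included 5 of the first 10 ranks, and held 2.43%, 3.18% and 2.68% of the TPM of DMSO 1, 2 and 3 from 0.18%, 0.16% and 0.16% of the reads. Their median effective length, by which TPM divides the reads, was 38.6, 28 and 32 bases in the DMSO libraries and 32 bases in EST 1, all from Novogene. It was 85.0 and 84.6 bases in EST 2 and 3, from IAB. Longer entries differed too, by a smaller factor. For the 185 of 300 bases or more the median was 426, 392 and 395 bases in DMSO 1, 2 and 3. It was 440 bases in EST 1 and 480 and 476 bases in EST 2 and 3.

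Rank 3, of 240 bases, stood at 3313, 4165 and 3620 TPM in DMSO and at 2004, 809 and 862 TPM in EST 1, 2 and 3. In CPM the same gene model had 213, 193 and 190 in DMSO and 109, 89.8 and 91.8 in EST, so EST 1 lay well above EST 2 and 3 in TPM and close to them in CPM. Rank 4, Nitab4.5_0009644g0020.1, of 237 bases, stood at 2951, 3879 and 3226 TPM in DMSO and at 2209, 600 and 1127 TPM in EST. In CPM it had 199.8, 179.6 and 163.7 in DMSO against 116, 69.5 and 133.5 in EST. Its log2 difference of -0.80 ± 0.27 (SE) did not pass edgeR's quasi-likelihood test (adjusted p = 0.0992).

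Over all 15, the median level was 767, 546 and 699 TPM in EST 1, 2 and 3, and 57.8, 65.5 and 89.2 CPM. EST 2 and 3 both lay below EST 1 for 10 of the 15 in TPM and for 2 in CPM, and both lay above EST 1 for 11 in CPM. The order of the EST libraries for these entries thus turned with the length correction. Against DMSO the sign did not turn for these 15. Their median log2 difference was -1.35 in TPM and -0.71 in CPM. It was -0.77 in TPM recomputed with one effective length per entry for all libraries. Over all 638 entries under 300 bases that were tested the sign did turn, with medians of -0.49, 0.11 and 0.08 in the same order.

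**Figure D3:**
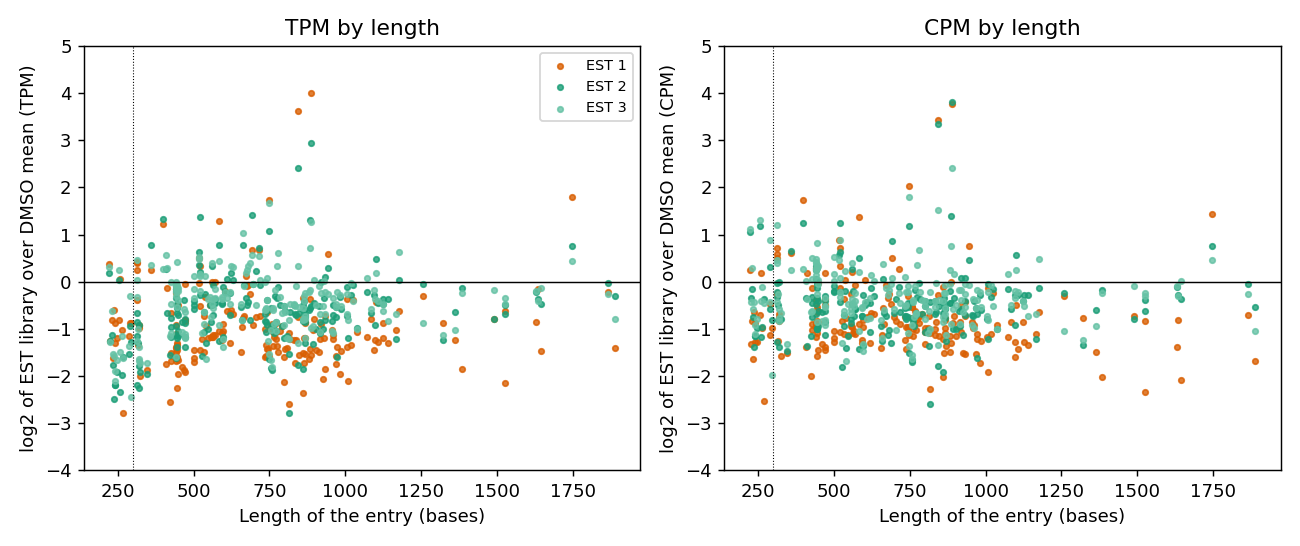
Log2 ratio of each EST library to the DMSO mean against length in bases for the 200 gene models, in TPM (left) and CPM (right). The dotted line marks 300 bases. To its left the EST 2 and EST 3 points lie under the EST 1 points for 10 of 15 gene models in TPM and for 2 in CPM.

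Between the DMSO libraries the 200 varied little. The coefficient of variation (SD over mean, n = 3) had a median of 0.083, with 119 gene models under 0.1 and 9 over 0.3. Without DMSO 1 the median was 0.023, so the value rests on the distance of DMSO 1 from the close pair of DMSO 2 and 3. The median was 0.10 over the next 200 ranks, 0.16 at ranks 1001 to 5000 and 0.22 over all gene models tested. The mean level falls along the same order, and its part in the spread was not tested. The smallest coefficient, 0.0017, belonged to rank 114, with 888, 890 and 891 TPM in DMSO. In EST 1, 2 and 3 the same gene model had 335, 778 and 834 TPM.

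Where the coefficients were largest, DMSO 1 stood apart. Rank 97 had the highest, 0.52, with 1561 TPM in DMSO 1 and 653 and 706 TPM in DMSO 2 and 3, and its EST values were 2283, 2440 and 1174 TPM. Rank 124 (0.45) and rank 159 (0.43) followed. DMSO 1 was the highest DMSO library for 11 of the 20 gene models with the largest coefficients and the lowest for the other 9, and all 11 had a higher mean in EST than in DMSO. Over all 200, DMSO 1 was lowest for 127, highest for 57 and in between for 16.

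After estradiol the level of the typical member of the list was lower in each library. The median was 46.5%, 63.8% and 73.6% of the DMSO mean in EST 1, 2 and 3, with quartiles of 36.6% and 61.0%, 47.7% and 81.6%, and 53.9% and 93.5%. In EST 1, 182 of the 200 lay under their DMSO mean, and 113 lay under 50% of it. In EST 2 these numbers were 172 and 54, and in EST 3 160 and 45. Levels more than 2-fold over the DMSO mean were seen for 6, 7 and 3 gene models. Taking the 3 EST libraries together, 152 lay under the DMSO mean in all of them and 12 lay over it in all. The median log2 difference of EST and DMSO means was -0.79 in log2(TPM + 1), against 0.02 over all gene models tested.

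All 3 EST libraries lay below all 3 DMSO libraries for 128 gene models in TPM, and above them for 8. Over all gene models tested the shares were 15.2% below and 21.5% above. In CPM the numbers were 122 and 4, with shares over all tested of 16.4% and 20.1%. The choice by DMSO level favours lower EST values here too, and nothing is read from these counts. Ranking by DMSO 1 alone and then setting EST against DMSO 2 and 3, so that no library served for both, gave a median log2 difference of -0.75. Ranking by DMSO 2 and 3 and setting EST against DMSO 1 gave -0.67. Both lists were still chosen by DMSO level, which favours gene models that are higher in DMSO than in EST. For 200 gene models ranked by their mean over all 6 libraries the median was -0.64, and for 200 ranked by their mean in the EST libraries it was -0.11.

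In TPM the median difference became smaller down the ranks, with no break at 200. The median log2 difference in TPM was -1.05 for ranks 1 to 10, -0.84 for ranks 11 to 50, -0.76 for ranks 51 to 100 and -0.74 for ranks 101 to 200. It was -0.66 for the next 200 ranks, -0.47 for ranks 401 to 1000 and -0.24 for ranks 1001 to 5000. Within the 200 this order was less plain in other measures. In CPM the medians of the same 4 classes were -0.74, -0.66, -0.60 and -0.61, and in EST 1 alone, in TPM, they were -0.84, -1.16, -1.04 and -1.13. Of ranks 1 to 10, 5 are entries under 300 bases. By length class within the 200 it was -0.75 for the 67 entries of 300 to 599 bases, -0.78 for the 70 of 600 to 899 bases and -0.71 for the 48 of 900 bases or more. In CPM the same classes had -0.51, -0.64 and -0.69, so the order by length differed between the scales.

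The fits over all gene models give calls for the 200, shown as a description since DMSO levels chose them. Without a company term, edgeR's quasi-likelihood test called 48 of the 200 at an adjusted p under 0.05, where 11.1% of all gene models tested were called. Of the 48, 45 were lower in EST (3.17% of all tested) and 3 higher (7.93%). Of the rank classes, 4 of ranks 1 to 10, 8 of ranks 11 to 50, 13 of ranks 51 to 100 and 20 of ranks 101 to 200 were called lower. Over the next 200 ranks, 48 of 200 were called lower, close to the 45 of the first 200. The number called among the first 200 was 25 (12.5%) without DMSO 1, where 11.7% of all tested were called. It was 0 without DMSO 2 (84 at an unadjusted p under 0.05) and 0 without DMSO 3 (80). Of all gene models tested, 6710 of 35552 and 6689 of 35378 had an unadjusted p under 0.05 in these fits. Over all gene models tested, those fits called 0 and 1. The number was 87 without EST 1, where 19.3% of all tested were called. Without EST 2 it was 6 (3.0%), where 2.27% of all tested were called. A fit blocked by replicate number called 95, where 22.3% of all tested were called. DESeq2 called 81, with 20.9% of all tested.

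With company as a covariate, the treatment term sets EST 1 alone against the 3 DMSO libraries, and this single library is assumed to vary like the others. As the DMSO levels also chose the list, these calls are a description too. The fit called 118 of the 200, where 24.6% of all gene models tested were called: 112 lower (11.2% of all tested) and 6 higher (13.4%). Novogene libraries alone gave 144 called, where 16.6% of all tested were called. IAB sequenced EST libraries only and gives no value of its own. Without DMSO 2 the company-adjusted count was 25 and without DMSO 3 it was 28, where 7.46% and 7.58% of all tested were called. Without DMSO 1 it was 145, where 46.5% of all tested were called. The fits of all 6 libraries without and with the company term both called 41 of the 200 lower (2.21% of all tested) and 3 higher (6.78%).

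The calls in both fits served only to choose the gene models described next. The 3 called higher in both were ranks 112, 124 and 108. Rank 112, Nitab4.5_0000032g0480.1 (888 bases), stood at 1281, 644 and 747 TPM in DMSO and at 14305, 6811 and 2137 TPM in EST 1, 2 and 3. Rank 124, Nitab4.5_0000032g0470.1 (843 bases), its neighbour in the scaffold numbering, stood at 1297, 579 and 686 TPM in DMSO and at 10535, 4554 and 1072 TPM in EST. Both were highest in EST 1 and, among the DMSO libraries, in DMSO 1. The EST libraries of rank 112 lay above all DMSO libraries, while EST 3 of rank 124 lay below DMSO 1.

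The neighbours became the first and second gene models of EST 1, and rank 112 also the first of EST 2. Together they took 2.48%, 1.14% and 0.32% of the TPM of EST 1, 2 and 3, against 0.26%, 0.12% and 0.14% in DMSO 1, 2 and 3. Without them the other 198 held 13.9%, 17.5% and 18.6% of the TPM of the EST libraries. The TPM order EST 1, 2, 3 is the reverse of the order of AtPIN5, but it rests in part on effective length. For rank 112 that length was 354 bases in EST 1, 1005 bases in EST 2 and 1197 bases in EST 3, and its CPM values were 9180, 9495 and 3582, with EST 1 and 2 close together. Rank 124 had 6631, 6298 and 1768 CPM. The pooled log2 difference, fitted on reads, was 3.43 ± 0.46 (SE) for rank 112 and 2.97 ± 0.56 (SE) for rank 124, with adjusted p values of 0.0112 and 0.0214 in edgeR's test. Leaving out DMSO 2 or DMSO 3 ended both calls (adjusted p from 0.0707 to 0.112), and that of rank 124 also without EST 2 (adjusted p = 0.0716). With effective lengths as offsets the pooled call of rank 124 was lost (log2 difference 2.62, adjusted p = 0.0705 in edgeR's test), and without the filter on low counts its company-adjusted call was lost (adjusted p = 0.0681). Estimates of both were not whole in any of the 6 libraries, as happens where Salmon divides reads between similar entries, and whether the neighbours shared reads with each other was not tested.

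The third, rank 108 (747 bases), was more even across the EST libraries. Its DMSO levels were 1141, 797 and 805 TPM and its levels in EST 1, 2 and 3 were 3017, 1914 and 2903 TPM, with no overlap. Its pooled log2 difference was 1.68 ± 0.29 (SE), with an adjusted p of 0.0175 in edgeR's test. As with every other pooled call among the 200, it was lost when DMSO 2 or DMSO 3 was left out. Those fits called 0 and 1 of all gene models tested.

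Among the 41 called lower in both fits, the largest differences belonged to ranks 42 and 113. Rank 42, Nitab4.5_0000297g0020.1 (816 bases), stood at 1500, 1443 and 1349 TPM in DMSO and at 236, 207 and 615 TPM in EST 1, 2 and 3. Its EST 3 level was 43.0% of the DMSO mean, against 16.5% and 14.4% in EST 1 and 2. The pooled log2 difference was -1.83 ± 0.41 (SE), with an adjusted p of 0.0318 in edgeR's test, and the call was lost without DMSO 1, DMSO 2, DMSO 3 or EST 2 (adjusted p from 0.0675 to 0.119).

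Rank 113, Nitab4.5_0000358g0030.1 (345 bases), was the more uniform of these, at 806, 918 and 948 TPM in DMSO and at 244, 230 and 268 TPM in EST. The pooled log2 difference was -1.46 ± 0.19 (SE), with an adjusted p of 0.0107 in edgeR's test, lost without DMSO 2 and without DMSO 3 (adjusted p = 0.0721 and 0.0719). Ranks 178, 174 and 139 followed in the size of the difference, at -1.36, -1.31 and -1.29. Rank 178 stood at 655, 724 and 717 TPM in DMSO and at 233, 223 and 240 TPM in EST.

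**Figure D4:**
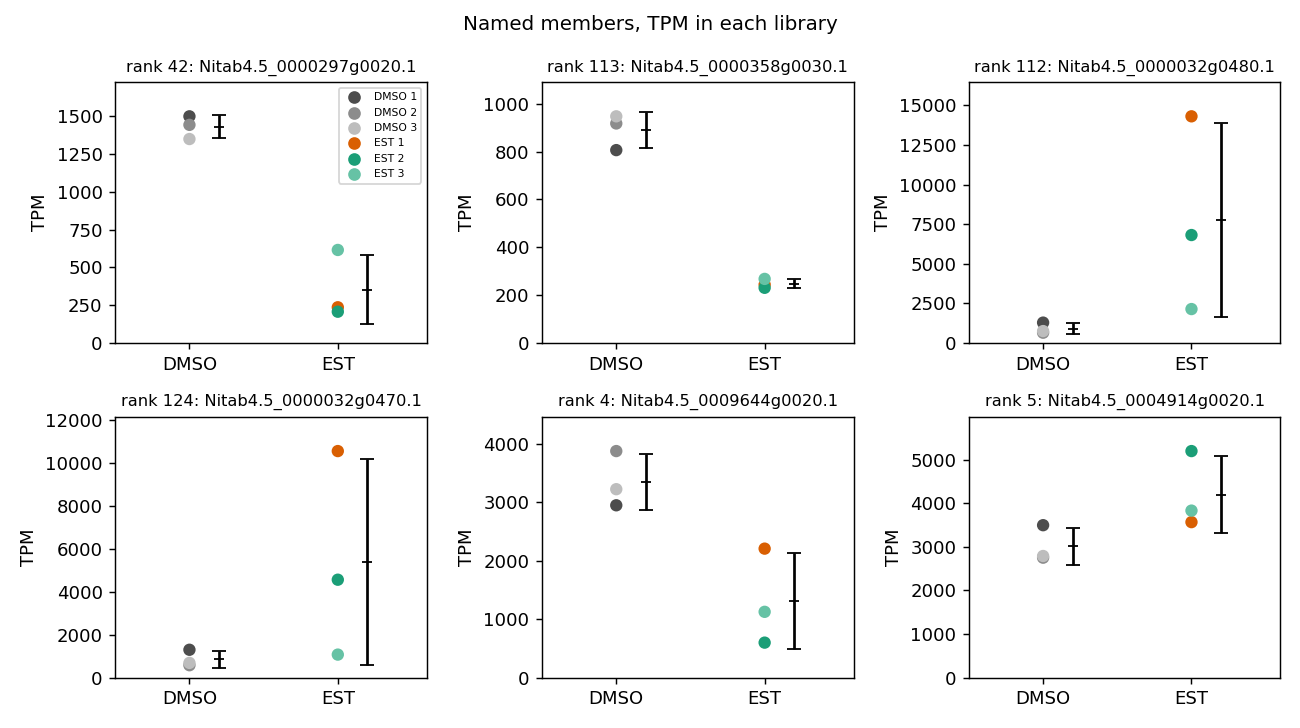
TPM (axis from 0) in each library for the 6 gene models given by identifier, with the group mean and SD (n = 3) beside the points. Ranks 42 and 113 lie lower in every EST library than in every DMSO library, rank 112 higher in every one, and for rank 124 the EST 3 value of 1072 TPM lies below the DMSO 1 value of 1297 TPM.

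One contrast over all gene models does not subtract the DMSO values that chose the list: the EST libraries of the 2 companies against each other. The DMSO libraries enter it only through the estimate of the spread. EST 1 was the lowest EST library for 125 of the 200 in TPM and the highest for 35. The log2 difference of EST 2 and 3 over EST 1, fitted on reads, was positive for 142 of the 200, with a median of 0.37 against 0.03 over all gene models tested. Over the next 200 ranks the median was 0.40, so this was not particular to the first 200. By edgeR's quasi-likelihood test 16 of the 200 differed at an adjusted p under 0.05, where 4.15% of all tested differed: 14 were higher in EST 2 and 3 (1.52% of all tested) and 2 lower (2.63%). The number was 79 (39.5%) without DMSO 1, where 24.2% of all tested were called. It was 0 without DMSO 2 (56 at an unadjusted p under 0.05) and 0 without DMSO 3 (57). Of all gene models tested, 8112 of 35552 and 8174 of 35378 had an unadjusted p under 0.05 in these fits. Those fits called 1.14% and 1.25% of all tested. Without EST 2 or EST 3 only 1 library from IAB is left, and the median log2 difference was 0.44 or 0.30.

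The largest of these differences belonged to rank 48 (268 bases), with 200, 451 and 446 TPM and 14.1, 63.2 and 59.3 CPM in EST 1, 2 and 3. Its log2 difference was 2.07 (adjusted p = 0.0262 in edgeR's test). Rank 74 (1526 bases) followed with 245, 773 and 783 TPM and a log2 difference of 1.94 (adjusted p = 0.0453), and rank 6 (255 bases) with 1613, 2899 and 3338 TPM and 1.90 (adjusted p = 0.0245). In DMSO these gene models stood at 1026, 1618 and 1467 TPM, at 715, 1257 and 1305 TPM, and at 2667, 2949 and 2836 TPM. All EST values of rank 48 lay under every DMSO value. For ranks 6 and 74 only EST 1 did so in TPM. In CPM, rank 6 had 366 and 402 in EST 2 and 3, above 184, 147 and 153.5 in DMSO and 99.4 in EST 1. Company, culture and date cannot be told apart in this contrast, since EST 1 is the only induced library from Novogene.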

How the data were processed

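RNA-seq libraries of BY-2 cells, 3 DMSO and 3 EST by the treatment label, were analysed from one deposited file per library. Salmon 1.3.0 and Trimmomatic are the tools named, per the submitters' processing notes, and their options and the read layout are not stated. Per the file headers, each file gives for 69492 entries the length, the effective length, an estimated count of reads and a TPM value. The TPM values deposited by the authors sum to 1000000 in each library. The estimated counts of reads in the deposited files carry no normalization and are often not whole.

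The members and the tests were chosen with earlier results of these data known. Gene models were ranked by mean DMSO TPM, ties by name. Estimated counts were rounded, then filtered with edgeR's filterByExpr (version 4.0.16 in R 4.3.3; at least 10 counts and 15 in total). TMM scaling and edgeR's quasi-likelihood test (robust, Benjamini-Hochberg adjustment over all entries) were applied to all 6 libraries, without a company term and with one. SEs are the log2 fold change divided by the root of its F statistic. Alternatives included DESeq2 1.42.0. Differences in TPM used log2(TPM + 1). CPM scale reads to library size without length correction. Identifiers are printed for the 2 largest rises and falls among members called in both fits and for ranks 1 to 5 called in neither; further ranks named for company differences were chosen after their values were seen. Total reads ranged from 11776234 to 17281241, and at the members' counts sampling error is small. The labels call the libraries biological replicates without saying how separate the cultures were, so p-values reflect only how far these libraries spread, in part perhaps technically.

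Replicate numbers are shared between groups. Same-numbered libraries deviated together from their group means in log2 CPM (r = 0.39, 0.13 and 0.33 for replicates 1, 2 and 3), over the 0.1 taken as the criterion for pairing, so the number was also fitted as a block. With deviations centred in each group and DMSO 2 and 3 close together, these 3 values are not independent.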

Additional observations from a re-analysis of the deposited data

Results flagged for a closer look

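Of the 200 gene models, 16 differed between the induced libraries of the 2 companies (EST 2 and 3 against EST 1) in edgeR's quasi-likelihood fit. Of all gene models tested, 4.15% did. They are listed because the contrast sets libraries given the same treatment against each other. It rests on EST 1 as the only library of its arm. The count was 0 without DMSO 2 or DMSO 3 (56 and 57 at an unadjusted p under 0.05 in edgeR's test). Of all gene models tested, 8112 of 35552 and 8174 of 35378 had an unadjusted p under 0.05 in these fits. Those fits called 1.14% and 1.25% of all tested. Without EST 2 or EST 3 only 1 library from IAB is left, and the median log2 difference of the 200 was 0.44 or 0.30. Of those higher in EST 2 and 3, 13 were also called lower for treatment with the company term, a contrast that uses EST 1 with the opposite sign. Groups of 3 libraries are too small for the test of single outlying libraries.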

How the results depend on the processing

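The count of the 200 gene models called in the pooled fit (48) moved to 81 under DESeq2, 95 with the replicate block, 144 in the Novogene libraries alone (chosen after seeing the data) and 0 with DMSO 2 and 3 summed into 1 library (85 at an unadjusted p under 0.05). The summed fit called 1 of 35818 gene models tested, and 6929 had an unadjusted p under 0.05. Ranked by DMSO 1 and set against DMSO 2 and 3, the pooled count was 27 (13.5%), where 11.7% of all tested were called. Ranked by DMSO 2 and 3 and set against DMSO 1 alone, the median log2 difference in the fit was -0.64. With 1 library left out the pooled count was 0 to 87, and 0% to 19.3% of all tested were called. Ranked by all 6 libraries the count was 47, 14 higher and 33 lower, and ranked by EST level it was 55, 37 higher and 18 lower. In the pooled fit used for both, 7.93% of all tested were called higher and 3.17% lower. The company-adjusted count (118) was 29 with DMSO 2 and 3 summed, where 7.79% of all tested were called. With 1 library left out it was 25 to 145, and 7.46% to 46.5% of all tested were called. That fit could not be made without EST 1. The company count was 16, where 1410 of all 33955 gene models tested were called. Under DESeq2 it was 38, where 4083 of 33955 were called. With no filter it was 28 (3057 of 50572), and with DMSO 2 and 3 summed it was 0 (402 of 35818). In the summed fit, 57 of the 200 and 8250 of all tested had an unadjusted p under 0.05. With 1 DMSO library left out the company count was 0 to 79, and 1.14% to 24.2% of all tested were called. The cause of these changes was not tested. The blocked fit was run on the pooled comparison only, and changed the call of none of the 6 gene models given by identifier. No called named gene model changed sign. The median log2 EST minus DMSO of all gene models was -0.05 under TMM and -0.11 under upper-quartile scaling.

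The share of TPM held in DMSO (24.4%) was 16.6% for the top 100, 38.4% for the top 500, 18.0% when ranked by CPM, 23.5% with one effective length per entry, 22.6% with entries under 300 bases left out and 15.1% in reads. In EST (18.0%) it was 11.3%, 29.1% and 14.3% for the first 3 of these, 12.1% in reads and 16.4% in EST 1 alone. With 1 library left out the shares ran from 24.1% to 24.8% and from 17.5% to 18.8%. The median log2 difference (-0.79) was -0.11 when ranked by EST, and -0.93 to -0.54 with 1 library left out. The median coefficient of variation was 0.023 without DMSO 1 and up to 0.097 otherwise with 1 library left out. The difference in own top 200 share (-1.68 points) ran from -2.54 to -0.88 points with 1 library left out and from -3.63 (top 500) to -0.25 (top 100) under the other settings. Restriction to gene models with whole estimates gave no value, since no member has them. Every one of the 200 had at least 166 reads in every library.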
